A study of Arabidopsis thaliana with 12 samples.

Results

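The genes described here had signals at least 2-fold lower in Arabidopsis shoot apices grown with L-AOPP and IAA than in apices grown with L-AOPP alone. L-AOPP (2-aminoxy-3-phenylpropionic acid) is an inhibitor that the series text places in the study of auxin biosynthesis, and IAA (indole-3-acetic acid) is an auxin that plants make themselves. Members were chosen by the measured signals themselves. A probe set, the group of array probes read as 1 transcript, was taken when 4 conditions held, with log2 taken of signals raised to a floor of 20. The mean with L-AOPP and IAA minus the mean with L-AOPP was -1 or lower, the 3 arrays of each group did not overlap, the mean L-AOPP signal was 40 or more, and mock apex minus mock whole plant lay between -4 and 2.5. Of 22746 probe sets 84 met these limits. AT3G50570 and 1 gene whose symbol starts with BGLU were left out, which gave 82 members. Of these, 35 had exactly 1 gene in the platform annotation, 2 had several, and 45 were not listed in it and carry no name here.

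All plants were Arabidopsis thaliana of the wild-type ecotype Col-0, and each of the 4 groups had 3 arrays. The shoot apical meristem part (SAM) was dissected from seedlings grown on plates with 50 µM L-AOPP, with 50 µM L-AOPP and 10 nM IAA, or with 0.1% DMSO as mock treatment, and whole mock plants were the fourth group. Whether the L-AOPP plates held the same DMSO is not stated. The sample labels give an age of 4 days and the series text 7 days. No group received IAA alone, so a response to IAA without the inhibitor was not measured. How many plants were pooled for an array, and whether replicates were separate cultures, is not stated in the labels, so the spread between arrays may be technical. In the dissected tissue, fewer cells of a type and less RNA per cell cannot be told apart.

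Auxin acts by bringing repressors of the Aux/IAA family to destruction, which frees transcription factors on auxin-regulated promoters. Genes switched on this way, such as GH3 and Aux/IAA genes, rise with auxin. Chitinases, PR-1-like proteins and class III peroxidases are secreted to the cell wall, and many members of these families are known from responses to microbes and wounding.

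The rule compared both L-AOPP groups, so the difference that defines the members is a description and was not tested. Of all probe sets tested across the array, 9.09% were lower with IAA without overlap and 0.647% were lower by 2-fold or more. The members' difference was not even across the 3 arrays with IAA. The median over the 82 members, relative to the L-AOPP mean, was -0.945 on IAA replicate 1, -1.42 on replicate 2 and -1.4 on replicate 3. Taken alone, IAA replicate 1 was at least 2-fold below the L-AOPP mean for 35 members, while replicates 2 and 3 were so for 71 each. IAA replicate 1 was the highest of its group for 57 members (69.5%), against 30.2% of the 15923 probe sets tested. For 19 members it was at least 2-fold above both other IAA arrays, which held for 0.433% of all probe sets tested. Without replicate 1 the rule took 140 probe sets, 76 of them among the 82, and the median difference of the 82 was -1.42 in place of -1.23. Over all probe sets tested that share of 0.433% was the highest of the 12 arrays, next to 0.427% for L-AOPP replicate 3. The mean correlation of IAA replicate 1 with the other IAA arrays was 0.984, in the range of the 12 arrays (0.981 to 0.987).

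**Figure D1:**
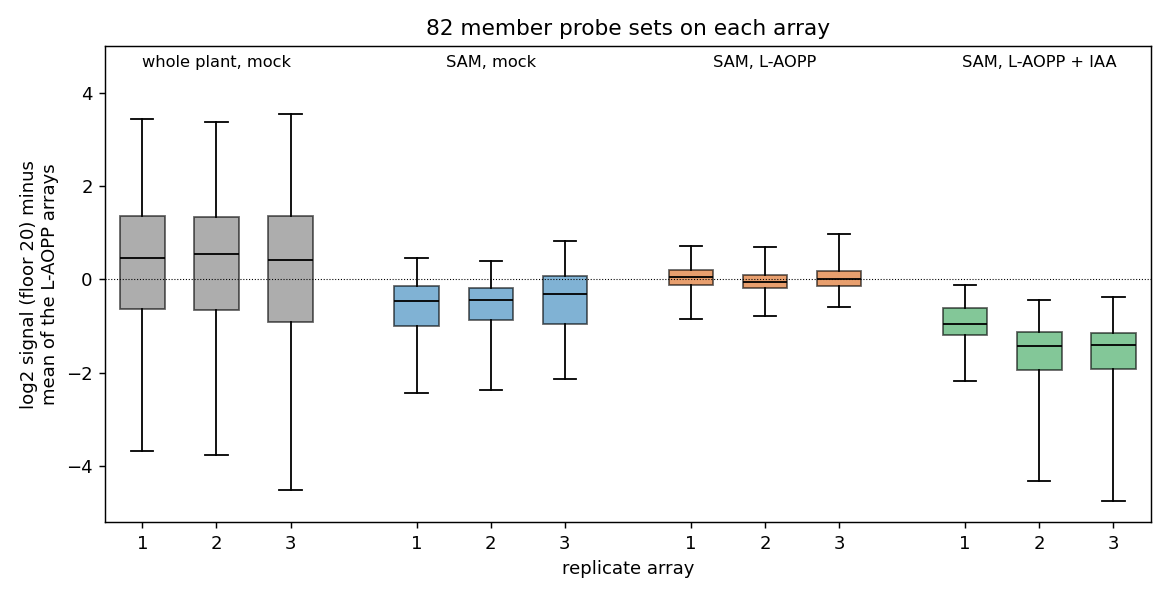
Boxes show, for each of the 12 arrays, the log2 signal (floor 20) of the 82 members minus each member's mean over the 3 L-AOPP arrays; lines mark medians, boxes quartiles and whiskers the full range. The median of IAA replicate 1 (-0.945) lies between those of the mock SAM arrays (-0.321 to -0.457) and those of IAA replicates 2 and 3 (-1.42 and -1.4).

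RNA quality and tissue makeup were read on the same arrays. The GAPDH control, read at its 3' and 5' ends as a gauge of RNA integrity, gave log2 ratios (3' over 5') of 1.24, 1.27 and 1.36 with IAA and 1.39, 1.49 and 1.63 with L-AOPP, so these groups did not overlap. With that ratio in the fit the median difference of the members was -1.26. Since the ratio did not overlap between these groups, the fit cannot tell it apart from the treatment, and nothing is read from this value. Mock SAM had ratios of 1.85, 1.39 and 2.1, and its replicate 3 stood apart in the 25S ribosomal RNA control (164.1, against 5169.9 to 10331.1 on the other arrays). The meristem markers named on the array, 4 of 16 listed (CLV3, LAS, UFO and PHV), were all called higher in mock SAM than in whole plants by limma, as were 42.8% of all probe sets, with 25.9% lower. The other listed markers, WUS and STM among them, were not analysed here. The summed signal of the 4 was 1462 to 1786 with IAA, 1344 to 1389 with L-AOPP and 1534 to 2021 in mock SAM. Every L-AOPP sum was thus below every sum of the other SAM groups. PHV made up most of the sum, with a mean of 1103 with L-AOPP. The log2 differences of IAA from L-AOPP were 0.43 for CLV3, 0.57 for LAS, 0.79 for UFO and 0.15 for PHV, with 0 called. At an unadjusted p below 0.05 in limma 2 of these markers were higher and 0 lower. The share of all probe sets at that level is not given here. The 4 of 15 green leaf genes on the array summed to 32450 to 36490 with IAA and 33820 to 35170 with L-AOPP, which overlap. Their sums were 35080 to 37350 in mock SAM and 84630 to 96490 in whole plants. The 2 root markers of 13 summed to 60.7 to 71.5 with IAA, 15.9 to 65.5 with L-AOPP, 44.3 to 57.4 in mock SAM and 573.9 to 785.9 in whole plants. Both were dim in the SAM groups, with means of 11.1 to 15.9 for EXPA7, below the floor, and 31.2 to 51.8 for EXPA18. The part of tissue makeup in the members' differences was not tested.

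Most members were of modest signal. The L-AOPP mean ran from 43.5 to 3150 with a median of 115, against a median of 374 over all probe sets tested. The medians of the other group means were 45.9 with L-AOPP and IAA, 84.3 in mock SAM and 150 in whole plants. At least 1 IAA array lay below the floor of 20 for 33 members and all 3 did for 2, and for these the difference of mean log2 signals is larger in size without the floor. Over all probe sets, 106 were 2-fold or more lower with IAA without overlap and 33 were higher by that size.

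The largest differences belonged to 4 probe sets that the annotation does not list, named here by their identifiers after their values were seen. Probe set 253660_at had signals of 801.3, 398.3 and 477.3 with L-AOPP and of 154, 28.5 and 16.1 with IAA (log2 -3.59). In mock SAM it had 127.3, 296.4 and 137.8, below every L-AOPP array. Probe set 259925_at had 731.5, 352.1 and 336.5 with L-AOPP and 178.6, 38.5 and 4.1 with IAA (log2 -3.10). In both, IAA replicate 1 was the array nearest to the L-AOPP group. Probe sets 249101_at (log2 -2.84) and 260551_at (log2 -2.62) had that order too, with IAA signals of 237.9, 22.9 and 48.3 and of 184.1, 60.4 and 61.1. The first of these was highest in whole plants, with a mean of 1506 ± 181 (SD, n = 3) against 332 ± 67.6 in mock SAM.

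Among named genes, 13 encode proteins of the cell wall or the secretory route, a grouping made after the members were known. Their log2 differences ran from -2.20 to -1.01. AT2G43600 and AT2G43610 encode neighbouring members of the chitinase family, enzymes known for cleaving chitin of fungal walls. AT2G43600 had signals of 144.5, 102.4 and 124.1 with L-AOPP and 47.6, 12 and 8.2 with IAA (log2 -2.20 with the floor, 4.59-fold). Its mock SAM signals of 134.5, 161.6 and 164.9 lay in the range of the L-AOPP group or above it, so this gene was low in the IAA group alone among the SAM groups. AT2G43610 had 153.7, 110.2 and 107 with L-AOPP, 47.2, 11.5 and 51.2 with IAA and 89.1, 95.3 and 118.4 in mock SAM (log2 -1.74). Its whole plant mean was 1178 ± 127 (SD, n = 3), the highest of the 4 groups by far. Cross-hybridisation between these related genes was not tested.

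AT2G19970 encodes a small secreted protein of the PR-1-like family, named after a marker of pathogen defence. It had signals of 73.6, 67.6 and 87.2 with L-AOPP, 29.5, 6.6 and 7.8 with IAA and 76.9, 26.9 and 35.6 in mock SAM. IAA replicates 2 and 3 were below the floor, and the log2 difference was -1.73 with it, -2.72 with no floor and -0.92 with a floor of 40. AT5G64110, a class III peroxidase of the cell wall, had 195.1, 139.1 and 165.2 with L-AOPP and 91.6, 22.3 and 30.9 with IAA (log2 -2.05). Its mock SAM signals of 111.4, 191.8 and 182.9 overlapped the L-AOPP range. The other peroxidase, Prx37, was dimmer in the SAM, with means of 48.8 ± 7.66 with L-AOPP, 19.9 ± 14.4 with IAA and 37.3 ± 14.9 in mock (SD, n = 3 each), and 276 ± 22.9 in whole plants.

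AT5G62150 encodes a LysM domain protein, a fold that binds sugar polymers such as chitin. It had 170, 224.1 and 192.4 with L-AOPP, 111.6, 44.2 and 67.8 with IAA and 166.1, 161 and 157.8 in mock SAM (log2 -1.49). Mock lay between the groups, next to L-AOPP. AT3G04010, for a glycosyl hydrolase of the beta-glucanase kind, had 55.6, 84.9 and 69.4 with L-AOPP and 4.8, 20.8 and 53.3 with IAA (log2 -1.30, and -1.98 with no floor or -0.647 with a floor of 40). Here IAA replicate 1 was the lowest array, unlike in most members. Mock SAM had 66, 15.6 and 15.7 and overlapped both treated groups.

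The rest of the wall group had smaller differences. AT1G26450, with a carbohydrate-binding X8 domain, was at -1.26 and the DUF579 family gene AT1G67330 at -1.21 (-0.881 and -0.858 without IAA replicate 3). The proline-rich protein gene AT5G12880 was at -1.13 and the UDP-sugar epimerase family gene AT4G20460 at -1.03 (-0.741 and -0.798 without IAA replicate 2). In AT4G20460 the IAA signals were 231.6, 92 and 94.7 against 268.3, 241.6 and 263.2 with L-AOPP, so that replicate 1 lay close to the L-AOPP group. The 2 lipid transfer protein-like genes, whose products carry lipids outside the cell, differed from each other in mock tissue. AT5G05960 (log2 -1.01, and -0.846 without IAA replicate 2) had a mock SAM mean of 266 ± 82.2, overlapping the 241 ± 45.3 with L-AOPP, and 2596 ± 143 in whole plants. AT5G55450 (log2 -1.15, and -0.955 without IAA replicate 3) had a mock SAM mean of 12.4 ± 6.2, below the floor, against 58.8 ± 6.95 with L-AOPP and 22.1 ± 19.1 with IAA (SD, n = 3 each).

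The 4 stress and lectin genes were, with 1 exception, lower in mock SAM than on any L-AOPP array. Over all probe sets tested 10.5% had every L-AOPP array above every mock array, and the rule took members that were high with L-AOPP, so nothing is read from this count. COR15A, a cold-induced protein that protects chloroplast membranes during freezing, was that exception. It had 566.9, 538.3 and 431.5 with L-AOPP, 221.2, 195.8 and 83.8 with IAA and 416.6, 441.8 and 472.1 in mock SAM (log2 -1.73). All mock arrays lay above all IAA arrays. AT4G24110, a gene induced by low oxygen, had 451.4, 460.2 and 462.5 with L-AOPP and 84.7, 165.3 and 124 in mock SAM. With IAA it had 369.6, 60 and 235.9 (log2 -1.40), a wide spread that ran from below the mock range to near the L-AOPP range. IAA replicate 2 carried much of this difference, which was -0.633 without it. The jacalin lectin gene JAL23 had means of 104 ± 33.5 with L-AOPP, 44.2 ± 5.55 with IAA and 47.1 ± 13.2 in mock SAM. AT5G53820, of the late embryogenesis abundant family, had 62 ± 4.87, 28.6 ± 9.28 and 23.9 ± 20.1 in the same order (SD, n = 3 each). In both, mock SAM and the IAA group overlapped.

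Regulators and signalling proteins made up 9 of the named members. AT4G01390, with the TRAF-like domain of protein adaptors, had 134.6, 142.4 and 89.2 with L-AOPP, 27.7, 20.6 and 35.2 with IAA and 120.6, 84.5 and 124.1 in mock SAM (log2 -2.14). Its 3 IAA arrays lay close together. AT5G43040, for a cysteine- and histidine-rich C1 domain protein, had 260, 210.2 and 179.1 with L-AOPP, 155.5, 55.9 and 70.8 with IAA and 153.5, 188.5 and 225.1 in mock SAM (log2 -1.33). The transcription factor gene WRKY47 (log2 -1.27) was close to level in whole plants, mock SAM and L-AOPP, with means of 186 ± 40.9, 182 ± 48.3 and 190 ± 23.7. Its IAA signals were 160.9, 44.8 and 66.2, so replicates 2 and 3 carried its difference.

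The protein phosphatase 2C gene AT4G32950 (log2 -1.26) and the NPH3 family gene AT3G15570 (-1.03), whose relatives act in responses to blue light, had every L-AOPP array above every mock array. AT4G32950 had means of 166 ± 44.4 with L-AOPP, 69.6 ± 20.6 with IAA and 80 ± 17.3 in mock SAM (SD, n = 3 each). For AT3G15570 these were 118 ± 21.6, 59.5 ± 18.8 and 60.6 ± 11.3. In the BTB domain gene AT1G01640 (-1.22) and the receptor-like kinase gene AT1G66830 (-1.004) every mock array lay above every IAA array. That was also so for AT1G07050, a CCT domain gene (-1.23). AT1G10690, a member of the SIAMESE-RELATED family of cell cycle inhibitors, had 53.8 ± 9.91 with L-AOPP, 23.6 ± 13.4 with IAA and 36.8 ± 19.6 in mock SAM.

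**Figure D2:**
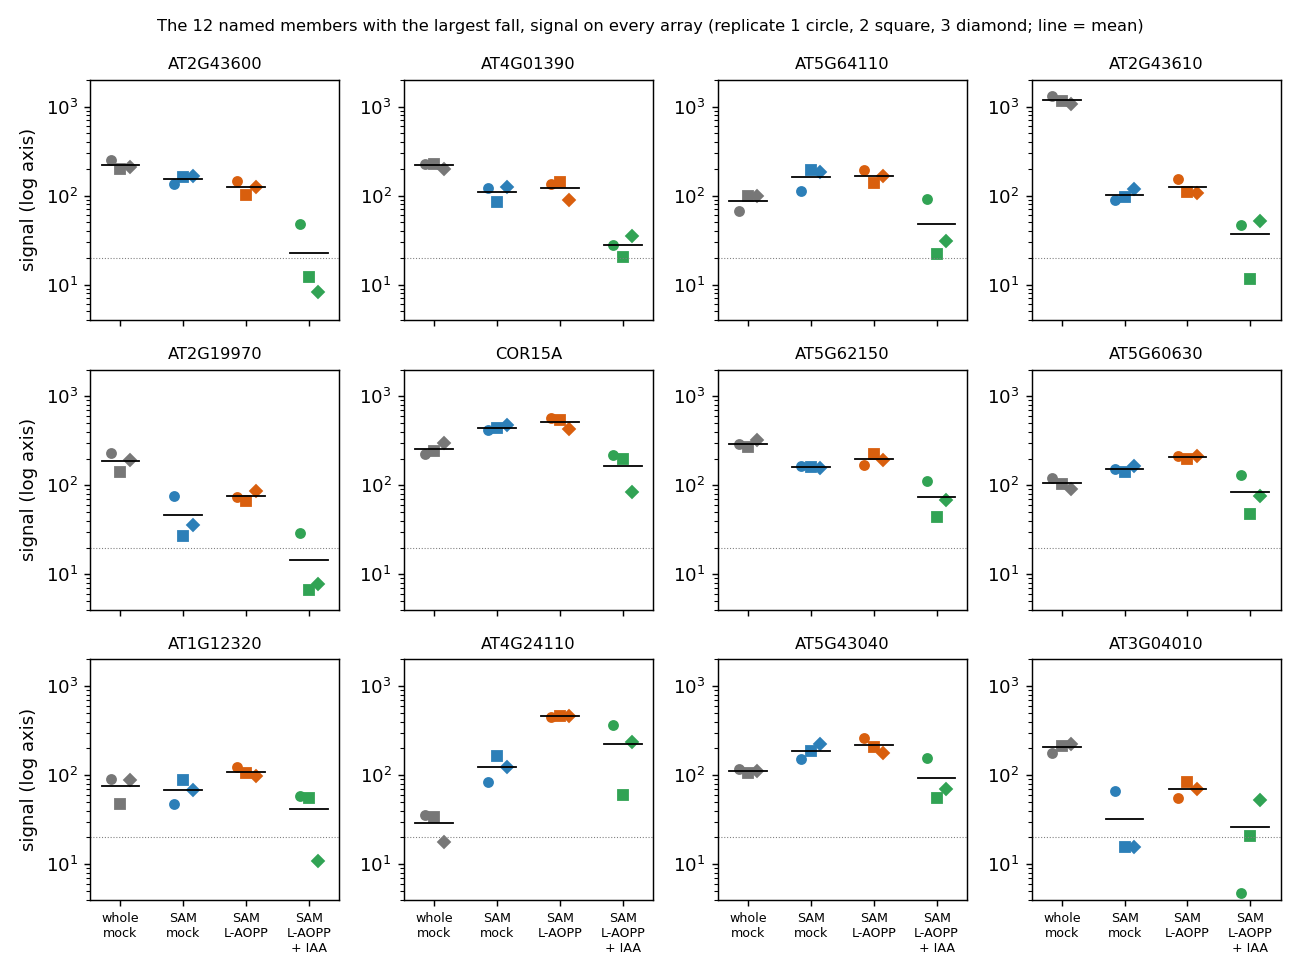
Signal on a log axis for the 12 named members with the largest difference, on every array of the 4 groups; markers separate replicates 1 to 3, black lines are means and the dotted line is the floor of 20. In AT2G43600, AT5G64110 and AT5G43040 the circle of IAA replicate 1 lies above the other IAA arrays, in AT4G01390 the 3 lie together, and in AT3G04010 the circle is the lowest.

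Of 2 metabolic genes, the carboxylesterase-like AT5G06570 had 24.1, 23.1 and 23.7 with IAA and a mean of 56.6 ± 22.1 with L-AOPP (log2 -1.19). The amino acid transporter family gene AT1G67640 was at -1.13, with dim means of 49.7 with L-AOPP, 20 with IAA and 35.7 in mock SAM. No role is given here for 7 members. AT5G60630 had 212.6, 198.7 and 214.5 with L-AOPP, 129.8, 47.2 and 75.2 with IAA and 151.3, 141.2 and 165 in mock SAM (log2 -1.43). AT1G12320 had 125, 105 and 98.1 with L-AOPP, 58.9, 55.7 and 10.8 with IAA and 47.9, 89.1 and 67.9 in mock SAM (log2 -1.43, and -0.926 without IAA replicate 3). In both genes every L-AOPP array was above every mock array. The others were AT5G14830 (-1.28), AT5G23480 (-1.11), AT3G56500 (-1.04), AT5G35870 (-1.02) and AT4G36230 (-1.01). Mean signals of AT5G23480 were 104 with L-AOPP, 50.6 with IAA and 74.2 in mock SAM. In the same order they were 60, 12.2 and 15.8 for AT5G14830 and 45.8, 18.9 and 23.1 for AT3G56500. AT5G35870 had 54.9, 24.9 and 56.1, and AT4G36230 had 50.2, 22.3 and 33.9. All but AT5G23480 were too dim to be tested and had IAA signals below the floor. At the edge of the rule, the members AT1G66830 (-1.004) and 2 unlisted probe sets (-1.001 and -1.009) were just inside. AT3G53980 (-0.997), UGT84A1 (-0.987) and 1 unlisted probe set (-0.988) were just outside.

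The mock SAM arrays give the level of the members without the inhibitor. The mock SAM mean of log2 signals was between the L-AOPP and IAA means for 60 members, above L-AOPP for 14 and at or below the IAA mean for 8. Against mock SAM, the median log2 difference of the members was 0.479 in the L-AOPP group and -0.831 in the IAA group. Every L-AOPP array was above every mock array for 33 members, 40.2% against a background of 10.5% of probe sets tested, and the reverse held for 0 (background 12.3%). Every mock array was above every IAA array for 38 members, 46.3% against 11%. These counts share arrays with the rule, which took members high with L-AOPP and low with IAA, so no test is given and nothing is read from them.

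**Figure D3:**
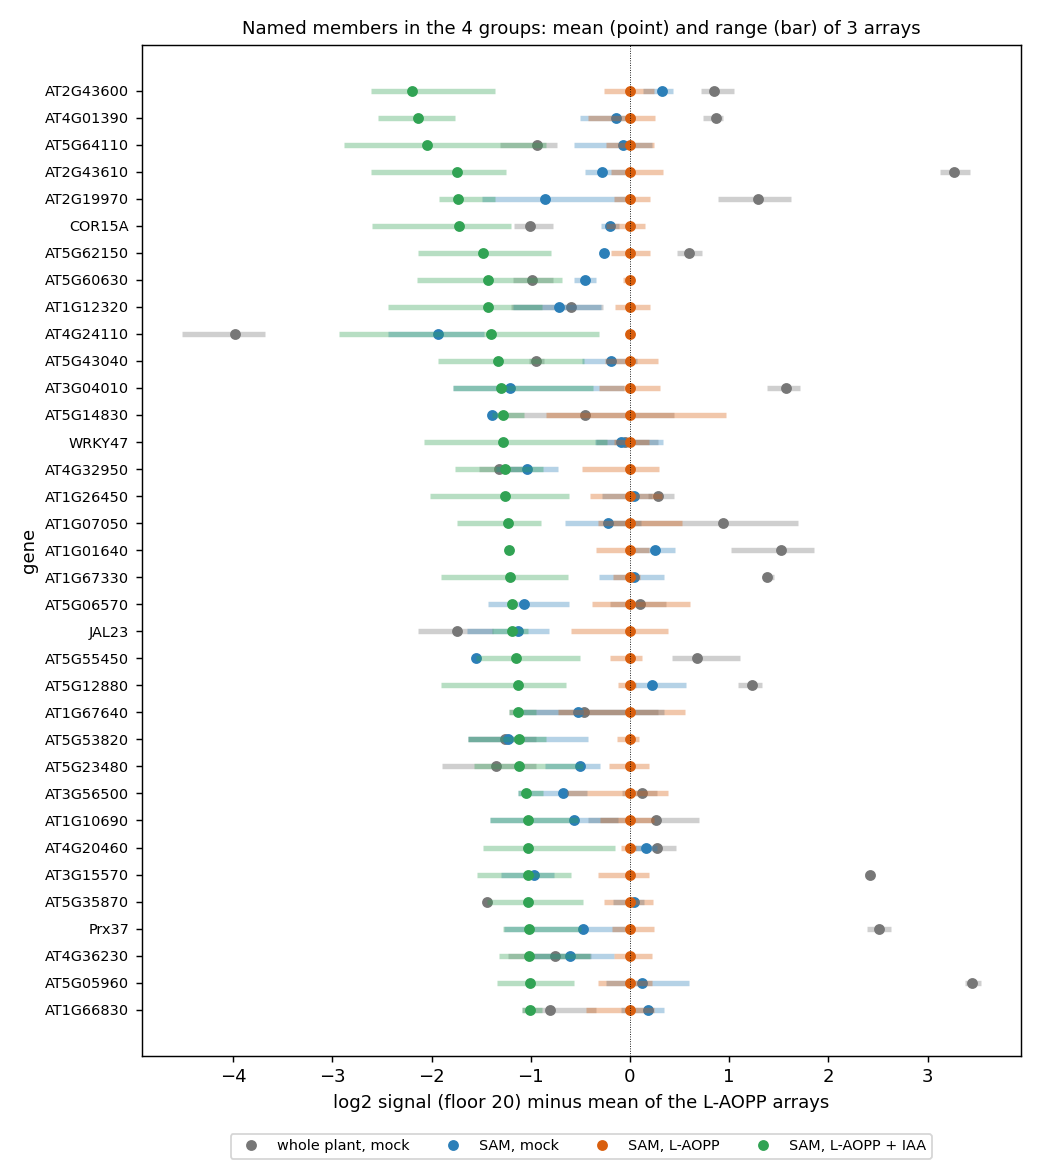
Log2 signal (floor 20) of the 35 named members minus each gene's mean over the L-AOPP arrays; points are means of 3 arrays and bars their range in each of the 4 groups. Mock SAM lies near L-AOPP in genes such as AT2G43600, COR15A and WRKY47 and near the IAA group in genes such as AT3G15570, JAL23 and AT5G53820.

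The midpoint of the L-AOPP and IAA groups was also set against mock SAM in the limma fit over all 15923 probe sets, and 69 of the 82 members passed its filter on dim signals. A midpoint of 3 and 3 arrays is uncorrelated with the difference used by the rule only where both groups spread alike. The members' median SD over arrays was 0.25 with L-AOPP and 0.518 with IAA on the log2 scale, so this contrast was not independent of the rule. Its counts are therefore a description, and no p-value is given for a member. At an adjusted p below 0.05 the fit called 2 members higher (1.7% of all probe sets were) and 3 lower (2.14% were), and 64 were not called. The median of the tested members was -0.262 and that of all probe sets -0.00454.

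AT2G43600 and AT4G01390 were the named genes among these calls. The midpoint of AT2G43600 was at -1.42 ± 0.24 SE on the log2 scale, and at -1.76 with no floor. Its signals were 124 ± 21.1 with L-AOPP, 22.6 ± 21.7 with IAA and 154 ± 16.7 in mock SAM (SD, n = 3 each). The midpoint of AT4G01390 was at -0.92 ± 0.21 SE, with 122 ± 28.7, 27.8 ± 7.3 and 110 ± 21.9 in the same order. In both genes mock lay near L-AOPP, and the IAA arrays that chose the genes were the ones below it. With the GAPDH ratio in the fit neither was called, at differences of -1.56 and -0.707. Neither was called without the filter on dim signals, where the differences do not change. AT4G01390 was also not called without mock replicate 1 (-0.845) or 3 (-0.824).

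The other 3 calls were unlisted probe sets. Probe set 246884_at was at 1.55 ± 0.27 SE, with 79.1, 147 and 93.3 under L-AOPP, 25.9, 37.7 and 52.3 under L-AOPP and IAA, and 11.5, 8 and 23.3 in mock SAM. The mock signals of 11.5 and 8 were below the floor, so the difference and its SE depend on the floor. Probe set 262482_at was at 1.02 ± 0.20 SE, with 131.9, 161.2 and 169.9 under L-AOPP, 70.5, 74.9 and 65.5 under L-AOPP and IAA, and 59.4, 36.3 and 61.6 in mock SAM. All arrays of both L-AOPP groups were thus above all mock arrays in these probe sets. Probe set 264574_at was at -1.13 ± 0.28 SE, with 192.1, 217.2 and 188.1 under L-AOPP, 102.4, 29 and 47.3 under L-AOPP and IAA, and 209, 196.5 and 269.5 in mock SAM. Mock and L-AOPP overlapped there, and every IAA array was lower. The number of lower calls changed with IAA replicate 1, the highest IAA array for most members. Without it 22 members were called lower and 2 higher, of 70 tested. Over all 15923 probe sets 328 were then called lower and 236 higher. Members were chosen for low IAA signals, so nothing is read from the larger count.

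**Figure D4:**
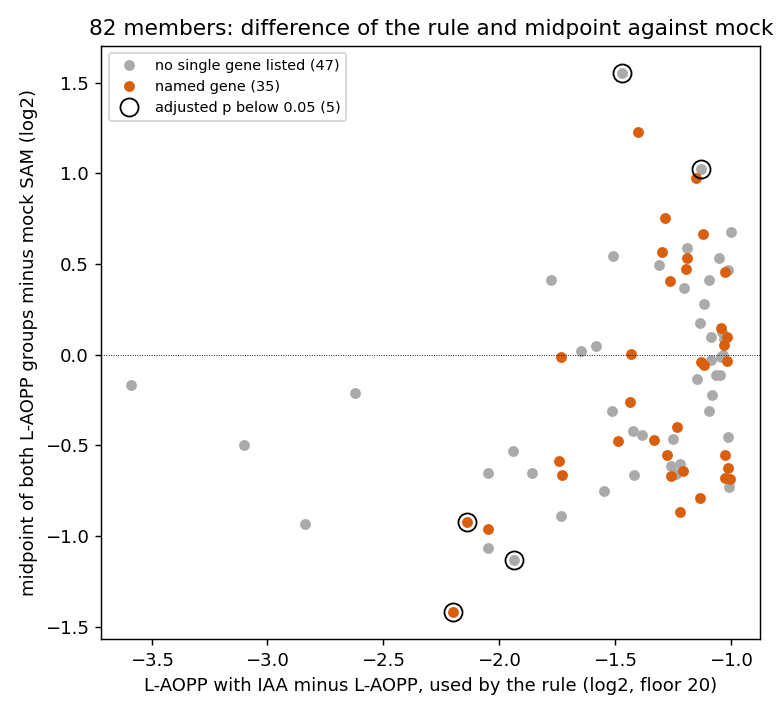
Each point is 1 of the 82 members, with the log2 difference used by the rule on the x axis and the midpoint of both L-AOPP groups minus mock SAM on the y axis. Rings mark the 5 members called in the midpoint contrast, 2 above 0 and 3 below, and the other points lie on both sides of 0.

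Whole plants were more often the higher of both mock tissues. Their mean of log2 signals was above that of mock SAM for 60 of 82 members (73.2%, against 40.4% of all probe sets tested), by 2-fold or more for 41, and mock SAM was 2-fold or more above whole plants for 8. Every whole plant array was above every mock SAM array for 47 members (57.3%, background 26.8%) and below for 15 (18.3%, background 43.3%). The rule limited this contrast on both sides, so these are descriptions. Of the 13 wall and secreted protein genes 12 had the higher mean in whole plants, with differences of -3.55 for AT2G43610, -3.33 for AT5G05960 and -2.98 for Prx37. AT3G15570 was at -3.39. Of the 4 stress and lectin genes, AT4G24110 had the higher log2 mean in mock SAM by 2.05, COR15A by 0.81 and JAL23 by 0.62. AT5G53820 was level, at 0.03 with the floor, and its direction depends on the floor. Its signals were 46.2, 18.5 and 7.1 in mock SAM (mean 23.9) and 18.6, 27 and 32 in whole plants (mean 25.9).

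Families of the members were also read outside the members, in the contrast that the rule used. The berberine bridge enzyme-like family was read as well, though it held no named member. Genes that met the rule are left out of these counts, so nothing is read from a lack of calls. Between the L-AOPP groups limma called 0.27% of all probe sets higher and 0.609% lower with IAA. Of 7 other tested genes of the chitinase family 0 were called (1 higher and 1 lower at an unadjusted p below 0.05), among them AT2G43620, which has the next locus number after AT2G43610 (-0.66 ± 0.31 SE, adjusted p 0.442). Of 4 other PR-1-like genes 0 were called (0 at an unadjusted p below 0.05). Of 8 genes of the berberine bridge enzyme-like family, oxidases of the cell wall, 1 was called lower (0 higher and 3 lower at an unadjusted p below 0.05). The called gene, AT5G44380, went from a mean signal of 67 ± 16.4 to 15 ± 9.69 (SD, n = 3 each, log2 -1.66 ± 0.21 SE, limma adjusted p 0.00205). It was no member because its mock SAM minus whole plant difference of -4.12 was past the limit. AT5G44380 met the other limits of the rule, so its p-value is no support from outside the rule.

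Genes that auxin is known to raise showed no call between the L-AOPP groups. Of 7 tested auxin response genes 0 passed in limma (1 higher and 0 lower at an unadjusted p below 0.05), with a list median of 0.145 against 0.00293 for all probe sets. GH3.3, for an enzyme that conjugates auxin, had means of 867 with L-AOPP and 879 with IAA (0.01 ± 0.18 SE, adjusted p 0.998). Of 4 jasmonate and wound genes the thionin gene THI2.2 rose with IAA (0.94 ± 0.18, adjusted p 0.0215), opposite to the members, and 0 were called lower. At an unadjusted p below 0.05 in limma 1 of these genes was higher and 1 lower. Between the L-AOPP groups none of 3 detoxification genes (0 at an unadjusted p below 0.05), 2 phenylpropanoid and flavonoid genes (0) or the only tested salicylate list gene, SAG101 (-0.03 ± 0.28, adjusted p 0.989), was called. Most genes of these lists were not analysed here, since the annotation used pairs them with no probe set. Between the L-AOPP groups the share of all probe sets at an unadjusted p below 0.05 is not given here. Nothing is therefore read from the unadjusted counts.

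Between L-AOPP and mock SAM, limma called 1.25% of all probe sets higher and 1.38% lower with L-AOPP. Of the list genes outside the members, 2 rose and 3 fell in this contrast, which shares the L-AOPP arrays with the one above. CML38, a calmodulin-like gene of the jasmonate and wound list, rose (1.83 ± 0.46 SE, adjusted p 0.0475), as did CHLADR, a reductase gene of the detoxification list (1.14 ± 0.29 SE, adjusted p 0.0497). Both calls were close to the limit of 0.05. The mock SAM mean of CHLADR was 11.8, below the floor, against 45 with L-AOPP, so the size of its difference depends on the floor. THI2.2 fell (-1.21 ± 0.18 SE, adjusted p 0.00338), as did the auxin-induced homeobox gene HAT2 (-0.75 ± 0.14 SE, adjusted p 0.0118) and the chitinase family gene AT4G19810 (-0.85 ± 0.15 SE, adjusted p 0.011). At an unadjusted p below 0.05 in limma, all 3 tested detoxification genes, of 19 listed, were higher with L-AOPP. All 4 meristem markers and 3 of 7 auxin response genes were lower at that level. The share of all probe sets at that level is not given here, so nothing is read from these counts.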

How the data were processed

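Signals of 12 arrays of the Arabidopsis thaliana platform were read from the authors' deposited table of intensity values, 1 linear signal per probe set and array. Per the submitters' processing notes they were made with MAS5; the values give each array a 2% trimmed mean of 500 to 500.1, and no detection calls were used here. The members, lists and role groups were chosen with earlier results of these data known. From the deposited intensity values, 64 control probe sets were left out, values below 20 were raised to 20, and log2 was taken. A linear model with 1 coefficient per group was fitted to all 12 arrays with limma 3.58.1 in R 4.3.3 (lmFit, eBayes with an intensity trend), after leaving out the 30% of probe sets with the lowest mean (6823). P-values are two-sided and Benjamini-Hochberg adjusted over 15923 probe sets, and called below 0.05. For changed probe sets simulated in the midpoint contrast, 92% were recovered at a log2 difference of 1 and 100% at 2, with 9 false calls. The simulation drew on all probe sets tested and gave every group the same spread. These rates need not hold for the members, which were dimmer and spread more with IAA.

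Differences that the rule used or that share its arrays are descriptions with no test of members; the midpoint contrast was planned as a test and is given as a description, since the spread of both treated groups was unequal. Every member with exactly 1 annotated gene is named; every array is given for the 12 with the largest difference and for those called in the midpoint contrast, and from each list up to 3 called genes per treatment comparison (mock SAM against whole plants is given for the meristem markers). Unlisted probe sets were named after their values were seen. Gene names come from the platform annotation, which can be old, updated through RefSeq genes of TAIR10.1 (13484 of 13513 probe sets with 1 gene matched). Replicate numbers were not taken as pairs: the same-number correlations of deviations from group means ran from -0.196 to 0.123. Only 3 arrays per group limit the precision. Promoter sequences were not analysed here.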

Additional observations from a re-analysis of the deposited data

How the results depend on the processing

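In the midpoint contrast with mock SAM, 2 members were called higher and 3 lower. A pseudocount of 20 in place of the floor gave 5 lower and made the rule take 52 probe sets in place of 82. Without a filter on dim signals 1 was higher and 0 lower (limma; 5 and 20 at an unadjusted p below 0.05). Leaving out the lowest 50% kept 17 members, with 0 higher and 0 lower (0 and 10 unadjusted) and a median of -0.627. The GAPDH ratio as a covariate gave 0 and 0 (5 and 10 unadjusted). The unadjusted share over all probe sets is not given here, and the contrast was not independent of the rule. Nothing is therefore read from the unadjusted counts. Leaving out 1 SAM array gave 1 to 22 lower and 2 to 3 higher. There were 22 lower without IAA replicate 1, 5 without IAA replicate 2, and 1 without mock replicate 1 or 3. The rule took 87 to 140 probe sets without 1 array. With the replicate number as a block, 2 were higher and 3 lower, as without it, and 1 of 9 arrays correlated best with its own number.

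Over all probe sets the midpoint contrast called 270 higher and 341 lower. These were 75 and 116 without a filter, 127 and 168 without the intensity trend, and 2 and 2 with the GAPDH ratio. They were 236 and 328 without IAA replicate 1, 154 and 203 without L-AOPP replicate 1, and 155 and 189 without L-AOPP replicate 2. Without mock replicate 1 they were 91 and 68, and without mock replicate 3 they were 63 and 81. The causes were not tested. The rule took 58 probe sets with a floor of 40 (53 of the 82) and 72 after quantile normalization (69 of the 82). Of the 12 named genes with the largest difference, AT2G19970 was at -0.92 with a floor of 40, and AT4G01390 at -1.58 there and -1.56 with the pseudocount. AT3G04010 was at -0.647 with a floor of 40, and AT4G24110 at -0.633 without IAA replicate 2. AT4G01390 was also not called in the midpoint contrast with a floor of 40 (-0.645) or with SAM arrays alone (-0.924). No difference of these genes turned its direction under the alternatives run, but nothing is read from this. The rule asked for no overlap between the L-AOPP groups. Leaving out an array or changing the floor could therefore not turn the difference between them.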
